A study of Saccharomyces cerevisiae with 35 samples.

Results

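The 9 genes described here make, import and consume glycerol in the yeast Saccharomyces cerevisiae. They were taken from the deposited table by their systematic IDs, and they are 9 of its 6717 genes. GPD1 (YDL022W), GPD2 (YOL059W), GPP1 (YIL053W) and GPP2 (YER062C) belong to synthesis, STL1 (YDR536W) to uptake, and GUT1 (YHL032C), GUT2 (YIL155C), GCY1 (YOR120W) and DAK1 (YML070W) to breakdown. All 9 passed the filter on low counts, and each had counts in all 35 libraries.

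Glycerol is the main compatible solute of this yeast. Cells in high salt accumulate it inside the cell, which balances the water potential of the medium, and the Hog1 MAP kinase pathway drives much of the transcription behind this. The Gpd enzymes reduce dihydroxyacetone phosphate to glycerol 3-phosphate and the Gpp phosphatases release glycerol from it. Stl1 imports glycerol together with protons. Breakdown runs through glycerol kinase (Gut1) and the mitochondrial glycerol 3-phosphate dehydrogenase (Gut2), or through a glycerol dehydrogenase activity attributed to Gcy1 followed by dihydroxyacetone kinase (Dak1).

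Total RNA depleted of rRNA was sequenced from 4 strains, unstressed and after 30 min or 3 h with NaCl at 0.7 M in YPD, a rich glucose medium, to ask how genetic background shapes the response to salt. BY4743 is a diploid laboratory strain, MATa/α and homozygous for his3Δ1, leu2Δ0 and ura3Δ0, with 1 mutant copy each of lys2Δ0 and met15Δ0. BC187 is a vineyard isolate (Wine/European in the labels), NCYC3290 is West African and YPS128 comes from North American oak. Each strain and time has 3 biological replicates, except that YPS128 at 30 min has 2 libraries. Each strain stands for its lineage alone, so that strain and lineage cannot be told apart.

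The libraries held from 3629637 to 5866906 counted reads (median 4732586). A floor of 3 counts corresponded to between 0.511 and 0.827 CPM, which covers counting error only. URA3 and LEU2, deleted in BY4743, had 0 counts in its 9 libraries and between 143 and 623 and between 209 and 1169 in the 26 others. Levels below are normalized CPM, that is CPM from library totals multiplied by their TMM scaling factors. Log2 fold changes, their standard errors (SE) and p-values are from the quasi-likelihood test of edgeR. P-values were adjusted by the Benjamini-Hochberg method over all genes tested, and a call means an adjusted p under 0.05. The YPS128 replicate 3 library at 3 h has no partner at 30 min and was left out of the NaCl fit; its values are printed with the others. Scaled to library totals in place of TMM, the median of all genes moved by 0.29, 0.03, -0.02 and -0.11 (log2) at 30 min, in the order BY4743, BC187, NCYC3290, YPS128, and by 0.15, 0.26, 0.58 and 0.76 at 3 h. Changes are given relative to the TMM scale.

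The promoters of STL1, GPD1 and GPP2 are shown because these were the members with the largest increases at 30 min, and because they were the 3 of 9 with an exact match to GGGACAAA, the site bound by the Hog1-dependent factor Hot1 at STL1. On either strand this motif occurred in the 500 bases before the start codon of 83 of 6000 genes (1.38%). Each stretch has 300 bases of the S288c R64 reference, read 5′ to 3′ on the strand of the gene, and ends 101 bases (GPP2: 201 bases) before the start codon. STL1 lies at chrIV:1507605-1507904 (plus strand), GPD1 at chrIV:411425-411724 (plus strand) and GPP2 at chrV:280883-281182 (minus strand). Capitals mark the Hot1 motif, here in its reverse complement TTTGTCCC, the stress response element CCCCT of Msn2 and Msn4, and TGACGT, part of the site of Sko1.
STL1: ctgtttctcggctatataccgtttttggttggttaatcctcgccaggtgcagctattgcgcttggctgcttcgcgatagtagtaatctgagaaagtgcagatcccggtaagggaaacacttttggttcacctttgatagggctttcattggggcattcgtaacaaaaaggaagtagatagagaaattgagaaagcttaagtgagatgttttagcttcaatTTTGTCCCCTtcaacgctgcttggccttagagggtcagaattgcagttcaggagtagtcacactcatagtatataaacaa
GPD1: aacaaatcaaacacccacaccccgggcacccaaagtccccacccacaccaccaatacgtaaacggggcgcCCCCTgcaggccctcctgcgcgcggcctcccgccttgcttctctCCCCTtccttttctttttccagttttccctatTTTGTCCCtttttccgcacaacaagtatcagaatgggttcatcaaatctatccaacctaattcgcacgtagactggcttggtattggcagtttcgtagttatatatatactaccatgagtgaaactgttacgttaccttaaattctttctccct
GPP2: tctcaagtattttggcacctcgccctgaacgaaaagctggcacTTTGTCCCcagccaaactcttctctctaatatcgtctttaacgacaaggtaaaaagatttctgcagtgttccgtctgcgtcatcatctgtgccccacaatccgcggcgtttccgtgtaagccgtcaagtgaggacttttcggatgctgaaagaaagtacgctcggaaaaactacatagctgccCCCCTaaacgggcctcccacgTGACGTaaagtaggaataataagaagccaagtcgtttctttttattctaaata

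The Hot1 motif began 180 bases before the start codon in STL1, where it overlapped a CCCCT, 254 bases before it in GPD1 and 457 bases before it in GPP2. CCCCT, searched on both strands, was found in 7 of 9 members, all but GPP1 and DAK1, and in 34.1% of all promoters. TGACGT was found in GPP2 and STL1 and in 13.5% of promoters. CATGTG, the core of the Ino2 and Ino4 site, was found in GPD2 and GUT1 and in 13.2%. A match is a description of the reference sequence, and the promoters of the 3 wild strains were not read. Genes with the Hot1 motif were not alike in their response: of 80 tested, 38 (47.5%) rose in BY4743 at 30 min and 12 (15%) in YPS128, where 33.3% and 8.5% of all genes tested did.

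**Figure D1:**
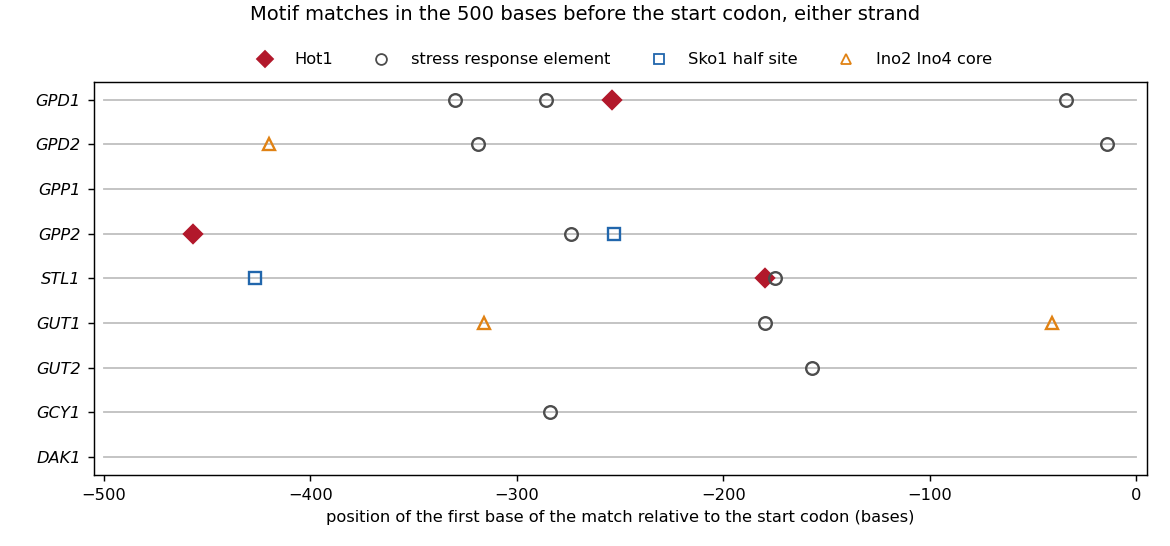
Motif matches in the 500 bases before the start codon of each member, on either strand of the R64 reference. The x axis is the position of the first base of the match relative to the start codon; the filled diamonds show the Hot1 motif, present in GPD1, GPP2 and STL1 only among the 9 members.

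Before salt, the members differed widely in level, with GPP1, the major glycerol 3-phosphatase, far above the rest. Per kilobase of coding sequence, GPP1 averaged 2291 CPM in BY4743 and between 1440 and 1616 in the wild strains. GPD2 followed with group means between 168 and 248 CPM per kilobase, and GPD1 with means between 72.1 and 136. GPD2 and GPD1 overlapped between replicates in BY4743 and YPS128 and stood apart in BC187 and NCYC3290. At the other end, STL1 had the lowest mean in every strain, between 4.11 and 5.36 CPM per kilobase, or between 4.97 and 9.81 normalized CPM in single libraries. GUT1, GUT2 and GCY1 lay between 7.2 and 24.8.

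Unstressed levels varied by strain. Set against the mean of the 4 strains, 4 members were higher in BY4743 and 1 was lower, where 49.6% of 5644 genes were called in that comparison. DAK1 was higher by 0.57 on the log2 scale (SE 0.05, adjusted p = 3.85e-10 from edgeR), GPP2 by 0.76 (SE 0.08, adjusted p = 1.17e-08), GPP1 by 0.50 and GUT2 by 0.56, and GPD2 was lower (-0.24). YPS128 differed from the mean in the opposite direction for all 5: DAK1 (-0.42), GPP2 (-0.49), GPP1 (-0.23) and GUT2 (-0.52) were lower and GPD2 higher (0.23), together with GPD1 (0.35) and GUT1 (-0.23), so that 7 members were called against 40.1% of genes. Deviations of the 4 strains from their own mean cancel out, so that opposite signs are partly built into these contrasts. NCYC3290 had 5 calls (29.6% of genes), with GPD1 (-0.55, SE 0.07, adjusted p = 1.28e-06 from edgeR), GPP1 (-0.22), GUT1 (-0.28) and GCY1 (-0.47) lower and GPP2 higher (0.27). BC187 had 2 (30.2% of genes), GUT1 higher (0.36) and GPP2 lower (-0.54). Between pairs of strains 29 of 54 tests were called. The numbers were 4 of 9 for BY4743 and BC187 (40.7% of genes), 7 for BY4743 and NCYC3290 (40.6%), 7 for BY4743 and YPS128 (49.1%), 3 for BC187 and NCYC3290 (29.3%), 3 for BC187 and YPS128 (32.9%) and 5 for NCYC3290 and YPS128 (31.9%). GPP2 ran from 50.1 to 61.3 normalized CPM in BY4743 and from 32.9 to 50.5 in NCYC3290, against 21.7 to 24.7 in BC187 and 14.8 to 30.5 in YPS128. BC187 and YPS128 overlapped, and BY4743 was separate from both, with log2 differences of 1.29 (SE 0.14) and 1.25 (SE 0.15). With 1 library left out, the call of GPD2 was lost in YPS128 without its replicate 2 (0.05) and in BY4743 without its replicate 2 (-0.17). In NCYC3290 the calls were lost for GCY1 without its replicate 1 (-0.25) or 3 (-0.50), for GPP2 without its replicate 1 (0.16) or 3 (0.29) or BC187 replicate 1 (0.24), and for GUT1 without its replicate 2 (-0.19). GUT1 in YPS128 lost its call without its replicate 1 (-0.20) or 3 (-0.23). With no replicate block in the fit, 8 calls by strain were made in place of 19. All 5 calls of NCYC3290 were lost there, among them GPD1 (-0.55, adjusted p = 0.0588 from edgeR). So were GPP1 (0.48, adjusted p = 0.0612) and GPD2 in BY4743, and GPD1, GPD2, GPP1 and GUT1 in YPS128. In the unstressed libraries replicate 2 was the highest of its strain in all 4 strains for GPD1, GPD2, GPP1 and DAK1. Reads of all strains were mapped to the S288c genome, and the part of mapping in these strain differences was not tested.

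NaCl raised most of the members, and the strains differed in when. At 30 min BY4743 had 7 of 9 members raised (33.3% of 5997 genes rose), BC187 had 6 (18.2%), NCYC3290 had 4 (16.5%) and YPS128 had 3 (8.5%). YPS128 had 2 libraries at 30 min and the others 3, so that its counts of calls are not like for like. At 3 h BY4743 (23.8%) and BC187 (30.6%) each had 6, and NCYC3290 (32.4%) and YPS128 (34.1%) each had 7. No member passed the test for a fall at 30 min, when 29.3%, 15.8%, 10.8% and 5.94% of genes did in the same order of strains. Under some other settings falls of GPP1 or GPD2 at 30 min were called, as given below. At 3 h GPD2 had fallen in BY4743 (20.4% of genes), and GPD2 and GPP1 in NCYC3290 (27.4%) and YPS128 (29.1%), while none had in BC187 (23.9%); both falls of GPD2 in wild strains were absent with library totals. In all, 51 of 72 tests were called, and GPD1, GPP2 and STL1 rose in all 8 comparisons. From 30 min to 3 h, BY4743 had 1 further rise (23.5% of genes), of GCY1, and 5 falls (25.6%), of all members of synthesis and uptake. BC187 had 3 rises (28.6%) and no fall (23.8%), NCYC3290 had 5 rises (27.6%) and 1 fall (27.1%), of GPP1 (-0.89; -0.28 with library totals, adjusted p = 0.068), and YPS128 had 7 rises (29.6%) and 2 falls (26.3%), of GPD2 and GPP1.

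**Figure D2:**
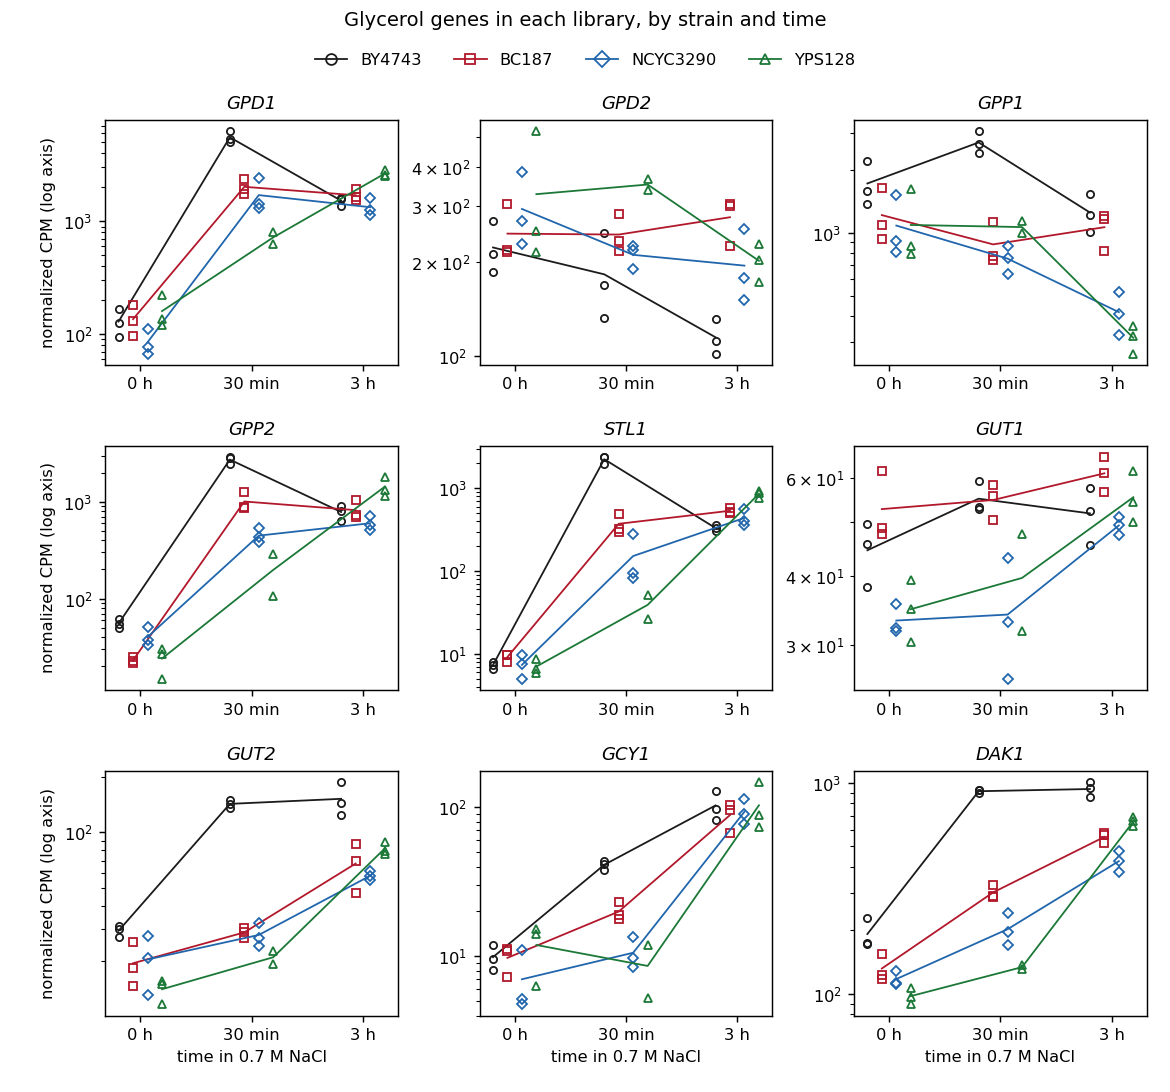
Normalized CPM (log axes that differ by panel) of the 9 members in each of 35 libraries by time in 0.7 M NaCl, with a line through the group means of each strain. STL1 ran from at most 9.81 unstressed to at least 1949 in BY4743 at 30 min; YPS128 libraries at 30 min stayed at 51.5 or less and reached at least 765 at 3 h.

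**Figure D3:**
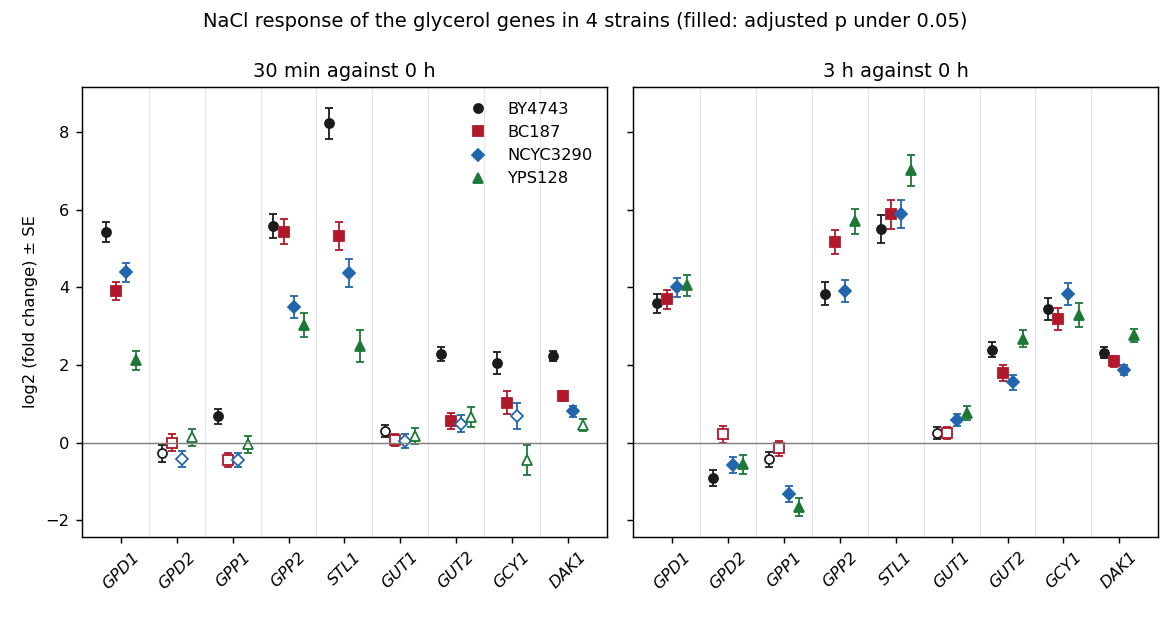
Log2 fold change against the unstressed libraries of the same strain, with its SE from edgeR, at 30 min (left) and 3 h (right). Filled points had an adjusted p under 0.05; the spread between strains for GPD1 and STL1 was from 2.12 to 5.43 and from 2.48 to 8.23 at 30 min, and from 3.59 to 4.05 and from 5.51 to 7.02 at 3 h.

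GPD1, the salt-induced glycerol 3-phosphate dehydrogenase, went from 95.5, 169 and 125 normalized CPM in unstressed BY4743 to 5000, 5378 and 6280 at 30 min, and was at 1589, 1613 and 1374 at 3 h. The 3 times did not overlap, and the level at 3 h was well below that at 30 min. The increase at 30 min was 5.43 on the log2 scale (SE 0.26, adjusted p = 1.43e-16 from edgeR), and the later change was a fall (-1.84, SE 0.22, adjusted p = 9.6e-08). YPS128 did the reverse in time. Its libraries were at 137, 222 and 122 unstressed, at 630 and 813 at 30 min, and at 2844, 2496 and 2578 at 3 h. GPD1 rose there by 2.12 (SE 0.24) at 30 min and by a further 1.93 (SE 0.27, adjusted p = 8.57e-07 from edgeR) to 3 h. In BC187 it lay between 96.7 and 181 unstressed, 1757 and 2379 at 30 min and 1550 and 1922 at 3 h, and the last 2 ranges overlapped. In NCYC3290 GPD1 was between 67.4 and 111, then between 1300 and 2400 and between 1130 and 1604, and replicate 1 was the high library at 30 min. The change from 30 min to 3 h was not called in these strains, at -0.23 (SE 0.22) and -0.39 (SE 0.22), and in NCYC3290 it moved to 0.01 without replicate 1 at 30 min and to a called fall without replicate 2 (-0.61, adjusted p = 0.0178).

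GPD2, the isoenzyme linked to redox balance in growth without oxygen, did not follow GPD1. It ran from 185 to 520 normalized CPM over all unstressed libraries and from 132 to 366 at 30 min, where no strain had a call. BY4743 had a call at 30 min without its 30 min replicate 3 (-0.68, against -0.28 with it), and NCYC3290 without any of 3 libraries, BY4743 30 min replicate 3, its own 30 min replicate 1 or unstressed YPS128 replicate 2 (-0.64 to -0.43, against -0.43). With library totals in place of TMM the change in NCYC3290 at 30 min was called too (-0.44). At 3 h the BY4743 libraries were at 102, 131 and 112, below all 3 of its unstressed libraries (185, 269 and 212), with a log2 change of -0.92 (SE 0.21, adjusted p = 5.94e-04 from edgeR). Lower calls at 3 h in NCYC3290 (-0.58, SE 0.21) and YPS128 (-0.56, SE 0.24) went to 0.00 and 0.24 with library totals in place of TMM, and neither was called there. Each also lost its call with 1 library left out: NCYC3290 without unstressed replicate 2 (-0.51) or 3 h replicate 3 (-0.50), and YPS128 without unstressed replicate 2 (-0.29) or 3 h replicate 2 (-0.43). In BC187 the change at 3 h was 0.21 (SE 0.21, adjusted p = 0.409), and 0.46 with a call with library totals. From 30 min to 3 h GPD2 fell in BY4743 (-0.64) and YPS128 (-0.69), calls that were lost without BY4743 30 min replicate 3 (-0.24) and without YPS128 30 min replicate 1 (-0.54) or 3 h replicate 2 (-0.56), and YPS128 was at 0.21 with library totals.

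GPP2, the salt-induced phosphatase, rose in every strain, while GPP1 had a called rise only in BY4743 at 30 min. In BC187 GPP2 went from 22.9, 24.7 and 21.7 normalized CPM to 892, 1272 and 854 at 30 min and to 819 ± 191 (SD, n = 3) at 3 h, a rise of 5.44 (SE 0.31, adjusted p = 2.08e-14 from edgeR) and then no called change (-0.27, SE 0.25). In BY4743 it went from between 50.1 and 61.3 to between 2448 and 2921 at 30 min, and back to between 636 and 911, a rise of 5.59 (SE 0.31) and a later fall (-1.75, SE 0.26). The stressed libraries did not overlap the unstressed ones in any strain. In NCYC3290 GPP2 went from between 32.9 and 50.5 to between 380 and 533 and then to between 510 and 717. In YPS128 the 30 min libraries were at 106 and 290, against 26.9, 30.5 and 14.8 unstressed, and the rise of 3.02 (SE 0.31) was 2.08 without replicate 2 and 3.58 without replicate 1. At 3 h YPS128 had 1327, 1141 and 1799, above every library of the other strains at that time, and the later rise was 2.68 (SE 0.33, adjusted p = 9.65e-08 from edgeR), or 2.09 without 30 min replicate 1 and 3.59 without replicate 2. Replicate 3 held the highest GPP2 level at 3 h in each of the 4 strains.

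GPP1 in BY4743 was at 1370, 2209 and 1596 normalized CPM unstressed, at 2405, 2662 and 3069 at 30 min and at 1005, 1530 and 1222 at 3 h. Its rise at 30 min (0.68, SE 0.19, adjusted p = 0.00346 from edgeR) was the only one called. The changes at 30 min in BC187 (-0.45, adjusted p = 0.0715) and NCYC3290 (-0.45, adjusted p = 0.0888) were falls past the threshold with single libraries left out. These were, for both strains, BY4743 30 min replicate 2 or 3, NCYC3290 30 min replicate 1 or unstressed YPS128 replicate 2, and for BC187 also its unstressed replicate 1 or that of NCYC3290 replicate 2 (-0.55 to -0.45 in BC187, -0.72 to -0.45 in NCYC3290). Both falls were also called with library totals in place of TMM (-0.42 in BC187, -0.47 in NCYC3290). That in BC187 was called with upper-quartile scaling (-0.50) and the Wald test of DESeq2 (-0.48) too. At 3 h it had fallen in YPS128, from 789, 1619 and 866 to 319, 360 and 264, with no overlap (-1.67, SE 0.23, adjusted p = 3.72e-07 from edgeR). NCYC3290 likewise went from 812, 1527 and 914 to 409, 519 and 324 (-1.33, SE 0.20, adjusted p = 1.12e-06). In BC187 the unstressed and 3 h libraries overlapped, from 933 to 1632 and from 822 to 1204 (-0.15, SE 0.19). BY4743 at 3 h had a change of -0.43 (SE 0.19, adjusted p = 0.0709), which was called without BY4743 30 min replicate 3 (adjusted p = 0.034), NCYC3290 30 min replicate 1 (adjusted p = 0.0435), NCYC3290 3 h replicate 3 (adjusted p = 0.0492) or unstressed YPS128 replicate 2 (adjusted p = 0.0461).

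The share of each paralog in its pair changed with time in salt. GPD1 made up between 24.2% and 41.8% of the GPD1 and GPD2 counts per kilobase in the 12 unstressed libraries. At 30 min its share averaged 97.2% ± 0.534 (SD, n = 3) in BY4743, 90.3% ± 0.768 in BC187 and 89.6% ± 2.67 in NCYC3290. Both YPS128 libraries were lower, at 67.7% and 71.4%. At 3 h every library was between 85.8% and 94.6%. GPP2 made up between 1.49% and 5.86% of the GPP1 and GPP2 counts unstressed. At 30 min it was at 50.2% ± 5.07 in BY4743, 53.3% ± 1.07 in BC187 and 37.2% ± 3.54 in NCYC3290, and at 9.63% and 20.3% in the YPS128 libraries. At 3 h YPS128 had the highest share, 81.3% ± 5.63 (76%, 80.6% and 87.2%), followed by NCYC3290 at 58.9% ± 8.74, BC187 at 43.6% ± 10.7 and BY4743 at 38.6% ± 4.14. YPS128 at 3 h overlapped no other group. With 3 libraries a group, an exact test of 2 strains cannot go below p = 0.10, and no test of the shares was made. The coding sequences of the S288c reference are 74.8% (GPD1 and GPD2) and 83.2% (GPP1 and GPP2) identical, with identical runs of at most 25 and 26 bases. Every 100-base window of each member occurs once in that genome. The sequences of the wild strains were not read, and the part of mapping in the shares was not tested.

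**Figure D4:**
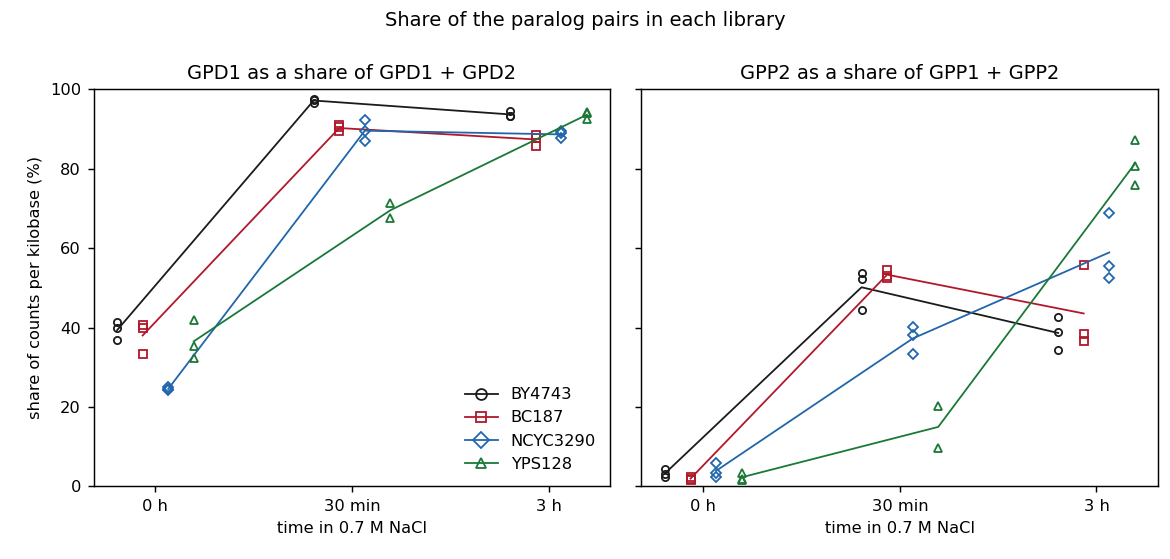
GPD1 as a percentage of GPD1 and GPD2 (left) and GPP2 as a percentage of GPP1 and GPP2 (right), from counts per kilobase, in each of 35 libraries by time, with a line through the group means. GPD1 passed 67% in every stressed library; GPP2 in YPS128 went from at most 20.3% at 30 min to at least 76% at 3 h.

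STL1, the glycerol and proton symporter, had the largest fold change of the 9 members in BY4743 at 30 min and in all strains at 3 h. In BY4743 it went from 6.66, 7.41 and 7.95 normalized CPM to 1949, 2363 and 2406 at 30 min and then to 331, 301 and 360. The rise of 8.23 on the log2 scale (SE 0.40, 299-fold, adjusted p = 1.48e-16 from edgeR) ranked 4 among the 5997 genes tested, and the later fall was -2.71 (SE 0.30). In YPS128 STL1 stood at 5.80, 8.71 and 6.60 unstressed, at 26.6 and 51.5 at 30 min and at 932, 869 and 765 at 3 h. No stressed library overlapped the unstressed ones. Its rise of 2.48 (SE 0.41, adjusted p = 5.14e-05 from edgeR) was 1.85 and 2.86 with either library left out, and it rose a further 4.54 (SE 0.41, 23.3-fold, adjusted p = 4.3e-10) to 3 h, or 4.13 and 5.13. At 3 h BY4743 was below YPS128 in level (-1.40, SE 0.31, adjusted p = 6.51e-04 from edgeR).

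STL1 in NCYC3290 had 1 library that stood apart. At 30 min it was at 278 normalized CPM in replicate 1 and at 82.7 and 94.9 in the others, against between 4.97 and 9.57 unstressed and between 362 and 555 at 3 h. The rise at 30 min was 4.36 (SE 0.36), or 3.48 without replicate 1, and the further rise to 3 h was 1.52 (SE 0.29), or 2.38. In BC187 it ran from 7.92 to 9.81, from 298 to 493 and from 504 to 581. Its rise of 5.33 (SE 0.36) at 30 min was followed by a change of 0.55 (SE 0.28) that was not called (adjusted p = 0.104 from edgeR), and that was called without NCYC3290 30 min replicate 1 (0.50, adjusted p = 0.0202).

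Breakdown through glycerol 3-phosphate was uneven, with GUT2 raised in all strains by 3 h and smaller changes of GUT1. GUT2 in BY4743 lay between 27 and 30.9 normalized CPM unstressed, 135 and 151 at 30 min and 124 and 188 at 3 h. It rose by 2.28 (SE 0.19, adjusted p = 3.3e-11 from edgeR) at 30 min and then stayed within the spread (0.11, SE 0.18). In YPS128 it was at 11.6, 14.9 and 15.6 unstressed, 22.7 and 19.2 at 30 min and 76.2, 88.6 and 79.7 at 3 h. Its change there was 0.65 (SE 0.26, adjusted p = 0.0889) at 30 min and 2.67 (SE 0.22, adjusted p = 3.21e-11) at 3 h. BC187 and NCYC3290 had rises of 1.79 (SE 0.20) and 1.55 (SE 0.20) at 3 h, and at 30 min changes of 0.56 (SE 0.21, adjusted p = 0.0348) and 0.49 (SE 0.21, adjusted p = 0.0812). The call in BC187 at 30 min was lost without any of 6 libraries (0.36 to 0.59), which were unstressed replicate 1 or 2 or 30 min replicate 1 or 2 of BC187, or unstressed replicate 2 of NCYC3290 or YPS128; that in NCYC3290 was made without unstressed replicate 3 (0.66, adjusted p = 0.0449). GUT1, the kinase, ran only from 26 to 65.6 normalized CPM over all 35 libraries. It rose at 3 h in NCYC3290 (0.58, SE 0.16, adjusted p = 0.00302) and YPS128 (0.76, SE 0.18, adjusted p = 5.85e-04), with no overlap between unstressed and 3 h libraries in either. Tested against the average response of the 4 strains, GUT1 had no call in NCYC3290 (0.13, adjusted p = 0.772) or YPS128 (0.31, adjusted p = 0.15). With library totals GUT1 was also called in BY4743 at 30 min (0.59) and in BC187 at 3 h (0.51), and in BY4743 at 30 min without unstressed BY4743 replicate 2 (0.44) or NCYC3290 30 min replicate 3 (0.35). Its rise from 30 min to 3 h was called in NCYC3290 (0.54) and YPS128 (0.59), but not without NCYC3290 30 min replicate 3 (0.37), or without YPS128 30 min replicate 2 (0.32) or 3 h replicate 1 (0.49).

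The dihydroxyacetone branch rose in every strain by 3 h, and GCY1 had a called rise from 30 min to 3 h in all 4. GCY1 in BY4743 was at 9.59, 11.9 and 8.12 normalized CPM unstressed, at 41.7, 43.7 and 38.1 at 30 min and at 97.2, 82.9 and 129 at 3 h, with no overlap between times. YOR121C, an ID beside GCY1 that the reference does not annotate, had from 27 to 108 counts, and its overlap with GCY1 was not checked. GCY1 rose by 2.05 (SE 0.28) and then by a further 1.39 (SE 0.24, adjusted p = 3.31e-05 from edgeR), in the interval in which GPD1, GPP2 and STL1 fell in this strain. In YPS128 GCY1 was at 14.2, 15.2 and 6.33, then at 5.23 and 12, and then at 88.4, 148 and 73.3. The unstressed and 30 min libraries overlapped (-0.45, SE 0.39), and the rise from 30 min to 3 h was 3.74 (SE 0.37, 13.4-fold, adjusted p = 1.81e-09 from edgeR). Without 30 min replicate 1 or 2 these values were -0.13 or -1.15, and 3.39 or 4.41. At 3 h the rise over the unstressed level was between 3.19 and 3.83 in the 4 strains. At 30 min GCY1 was also called in BC187 (1.03, SE 0.30), but not without unstressed replicate 3 (0.88, adjusted p = 0.0527).

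DAK1 was between 173 and 230 normalized CPM in unstressed BY4743, between 895 and 922 at 30 min and between 853 and 1009 at 3 h, a rise of 2.23 (SE 0.14, adjusted p = 6.9e-14 from edgeR) that was held (0.08, SE 0.13). In BC187 it was between 118 and 155, then at 303 ± 22.9 (SD, n = 3), then between 517 and 578. NCYC3290 ran from 111 to 129, then from 170 to 241 and from 378 to 474, and in neither strain did any of the times overlap. In YPS128 the libraries were at 89.2, 107 and 96.8, at 137 and 131, and at 687, 622 and 657. The 30 min change there was 0.45 (SE 0.16, adjusted p = 0.0551), a call without BY4743 30 min replicate 3 (adjusted p = 0.0367) or NCYC3290 30 min replicate 2 (adjusted p = 0.0449), and the change at 3 h was 2.76 (SE 0.16, adjusted p = 6.05e-15). The 30 min change was also called with upper-quartile scaling (0.52), the Wald test of DESeq2 (0.44) or the likelihood ratio test of edgeR (0.45).

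The difference between strains was tested directly, as the log2 fold change of each strain minus the mean of the 4. These differences cancel out over the 4 strains, so that the calls of different strains for a gene are not independent. At 30 min BY4743 had a larger response for 7 members, where 23% of genes were called higher. STL1 exceeded the mean by 3.13 (SE 0.31, adjusted p = 4.11e-09 from edgeR), GPD1 by 1.47 (SE 0.19, adjusted p = 6.83e-07), GUT2 by 1.28, GCY1 by 1.23, GPP2 by 1.21, DAK1 by 1.06 and GPP1 by 0.75. YPS128 had a smaller response for 5 members, where 6.1% of genes were called lower: STL1 (-2.62, SE 0.37, adjusted p = 1.56e-05), GPD1 (-1.85, SE 0.22, adjusted p = 1.33e-06), GPP2 (-1.37), GCY1 (-1.28) and DAK1 (-0.72). All but GCY1 of these 12 held under every alternative and with each library left out; GCY1 in YPS128 was at -1.10 without unstressed replicate 1 (adjusted p = 0.0508) and at -1.03 without 30 min replicate 1 (adjusted p = 0.132). GPP2 in YPS128 was at -0.95 without 30 min replicate 1 and at -2.09 without replicate 2. BC187 had 1 higher call (1.2% of genes), GPP2 at 1.05 (SE 0.24), lost without unstressed replicate 3 (1.04) or 30 min replicate 2 (0.92), and NCYC3290 had 1 lower call (1.27%), GPP2 at -0.89 (SE 0.23), lost without any of 5 libraries (-0.90 to -0.69): unstressed BY4743 replicate 3, unstressed NCYC3290 replicate 1, its 30 min replicates 2 or 3, or YPS128 30 min replicate 2. Without NCYC3290 30 min replicate 1, STL1 in NCYC3290 was below the mean (-1.38, adjusted p = 1.97e-04), as were GUT2 (-0.68, adjusted p = 0.0315) and DAK1 (-0.52, adjusted p = 0.0114), where the values with it were -0.74, -0.51 and -0.36 with no call.

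**Figure D5:**
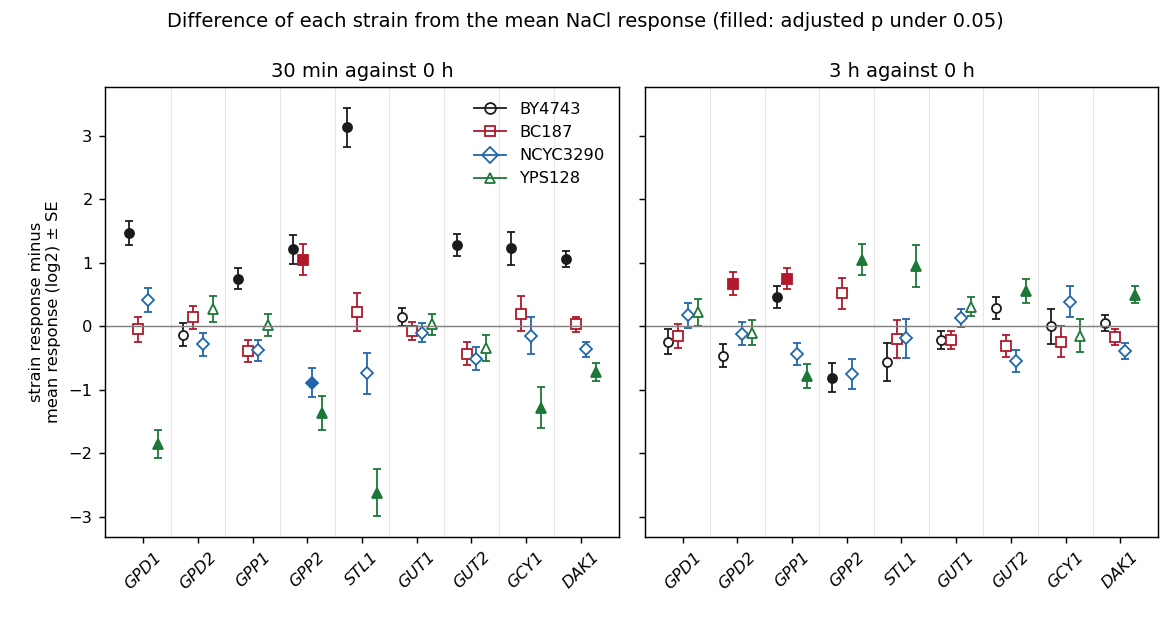
Log2 fold change of each strain minus the mean of the 4 strains, with its SE from edgeR, at 30 min (left) and 3 h (right). Filled points had an adjusted p under 0.05; at 30 min STL1 ran from -2.62 in YPS128 to 3.13 in BY4743, and at 3 h all values lay between -0.81 and 1.05.

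At 3 h the differences were smaller, and each of the 9 calls was lost with at least 1 library left out. YPS128 exceeded the mean for GPP2 (1.05, SE 0.25), STL1 (0.95, SE 0.33), GUT2 (0.56, SE 0.19) and DAK1 (0.50, SE 0.13), where 11.7% of genes were called higher, and was below it for GPP1 (-0.78, SE 0.19), where 12.3% were called lower. Without YPS128 3 h replicate 1 the calls of GPP2 (0.91, adjusted p = 0.051 from edgeR) and DAK1 (0.40, adjusted p = 0.115) were lost, and without its replicate 2 that of GPP1 (-0.67, adjusted p = 0.0519). The calls of STL1 and GUT2 were lost without any of 8 and 7 libraries (0.83 to 1.03 and 0.48 to 0.61), namely, for both, each of the 5 YPS128 libraries at 0 and 3 h in the fit and unstressed replicate 3 of BC187 or NCYC3290, and for STL1 also that of BY4743. BY4743 was above the mean for GPP1 (0.46, SE 0.17; 10.6% of genes) and below it for GPP2 (-0.81, SE 0.23; 11.9%). The first was lost without any of 13 libraries of the 4 strains (0.40 to 0.52), and the second without BY4743 3 h replicate 1 (-0.72, adjusted p = 0.0508). BC187 was above the mean for GPP1 (0.75, SE 0.17) and GPD2 (0.67, SE 0.18; 3.8% of genes). GPP1 was lost without BC187 3 h replicate 1 (0.61, adjusted p = 0.0556) and GPD2 without any of 6 libraries (0.52 to 0.66), from BC187 and NCYC3290. NCYC3290 had no call at 3 h (3.54% of genes in either direction).

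The level at 3 h, after these courses, was compared between pairs of strains. GPP1 was higher in BY4743 than in NCYC3290 and YPS128, by 1.62 (SE 0.20) and 1.96 (SE 0.24, adjusted p = 1.12e-07 from edgeR), and in BC187 than in both, by 1.38 and 1.72. DAK1 and GUT2 were higher in BY4743 than in each wild strain, DAK1 by between 0.54 and 1.17 and GUT2 by between 0.82 and 1.40. Both were already higher there unstressed, DAK1 by between 0.57 and 0.99 and GUT2 by between 0.56 and 1.08. Their responses at 3 h in BY4743 were not called against the mean of the strains (0.05 for DAK1 and 0.29 for GUT2). GPD2 was lower in BY4743 than in each, by between 0.71 and 1.26 in size (-0.71 to -1.26). GPD1, GPP2 and STL1 had their highest mean in YPS128, and their 5 called pairs all had YPS128 as the higher strain. These 5 calls held in between 30 and 34 of 34 fits with a library left out. GPP2 was called against NCYC3290 only (-1.04, SE 0.28). Between BC187 and YPS128 no call was made for GPD1 (-0.58, adjusted p = 0.0762 from edgeR), GPP2 (-0.57, adjusted p = 0.141) or STL1 (-0.73, adjusted p = 0.0882). In all 20 of 54 pairwise tests were called, and 13 without YPS128 3 h replicate 1. They were 3 for BY4743 and BC187 (27.4% of genes), 4 for BY4743 and NCYC3290 (42.2%), 6 for BY4743 and YPS128 (43.9%), 2 for BC187 and NCYC3290 (21.9%), 1 for BC187 and YPS128 (25.1%) and 4 for NCYC3290 and YPS128 (11.9%). DAK1 in BC187 and NCYC3290 (0.40, adjusted p = 0.0339) held in 12 of 34 fits with a library left out (0.29 to 0.43) and in 5 of 8 other settings. GCY1 and GUT1 had no called pair at 3 h.

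Across the means of the 12 strain-by-time groups, GPD1, GPP2 and STL1 had the most similar courses among the synthesis and uptake genes. Pearson's r of mean log2 CPM was 0.981 for STL1 and GPP2, 0.973 for GPD1 and GPP2 and 0.97 for GPD1 and STL1. GUT2 and DAK1 had r = 0.981, and GPP1 had no r above 0.034 with any member. The points share libraries and time courses, and the values are a description. Over all genes tested, those most like each member were RTC3 and YNL011C for GPD1 (0.983 and 0.98), DGA1 and UBI4 for GPP2 (0.992 and 0.986), NTH1 and SYM1 for STL1 (0.985 and 0.984), GOR1 and MCO10 for GCY1 (0.977 and 0.976), DCS2 and IGD1 for DAK1 (0.987 and 0.985) and, after DAK1, SIP18 for GUT2 (0.978). The best matches of GPD2 (SUA5 and RPA14, 0.901 and 0.9), GPP1 (SEC10 and DHH1, 0.914 and 0.886) and GUT1 (YML116W-A and FDC1, 0.953 and 0.934) were lower. UBI4 encodes polyubiquitin, DGA1 an acyltransferase of triacylglycerol synthesis and NTH1 the neutral trehalase.

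Other genes around glycerol had smaller median changes, 0.24 on the log2 scale in BY4743 at 30 min against 2.23 for the members. Of 12 further genes of glycerol metabolism and transport, such as the channel FPS1 and the triose phosphate isomerase TPI1, BY4743 and NCYC3290 at 30 min each had 5 that rose and 2 that fell, BC187 had 4 and 3, and YPS128 had 1 and 0. Their medians lay between 0.10 and 0.24, and those of all genes between -0.03 and 0.06. These rises stand beside 33.3%, 18.2%, 16.5% and 8.5% of all genes in BY4743, BC187, NCYC3290 and YPS128. At 3 h between 6 and 8 of the 12 had risen, where between 23.8% and 34.1% of all genes had, and 2 had fallen in NCYC3290 and 1 in YPS128. NDE2, the external mitochondrial NADH dehydrogenase with the highest mean change of that list, rose at 30 min by 2.64 (SE 0.26) in BY4743 and by more in the wild strains, with BC187 at 4.28 (SE 0.28), NCYC3290 at 4.10 (SE 0.27) and YPS128 at 4.09 (SE 0.30). Its response at 30 min was below the mean of the strains in BY4743 (-1.14, SE 0.25, adjusted p = 4.19e-04 from edgeR), where GPD1 and STL1 were above it. Its paralog NDE1 had the lowest mean of the list and fell in BY4743 (-1.67, SE 0.25) and BC187 (-0.67, SE 0.25) at 30 min.

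Regulators and general stress genes were compared as lists too. Of 11 regulators of glycerol genes, BY4743 had 7 that rose at 30 min (33.3% of all genes did) and 1 that fell, BC187 3 (18.2%) and 2, NCYC3290 4 (16.5%) and 1, and YPS128 1 (8.5%) and 1. At 3 h the rises were 4, 5, 6 and 6 in the same order (23.8%, 30.6%, 32.4% and 34.1% of all genes), with 1 fall, in BY4743. ADR1, the activator of genes for growth without glucose, rose at 30 min by 2.24 (SE 0.20) in BY4743 and had a change of 0.41 (SE 0.32) in YPS128, and it was up by 1.47 (SE 0.20) and 3.68 (SE 0.25) at 3 h. SKO1, the lowest of that list, fell at 30 min in BC187 (-0.41, SE 0.16) and NCYC3290 (-0.64, SE 0.16). All 12 osmotic stress genes rose at 3 h in the 4 strains, and 12, 10, 9 and 5 did at 30 min in the same order of strains, against the same shares of all genes. HSP12, a small membrane-associated heat shock protein and the highest of them, rose at 30 min by 9.50 (SE 0.47) in BY4743 and 5.24 (SE 0.66) in YPS128, while GRE3, an aldose reductase and the lowest, rose by 3.30 (SE 0.19) in BY4743 and changed by 0.16 (SE 0.22) in YPS128. Of 7 glucose-repressed genes, 5, 5, 3 and 3 rose at 30 min and none passed the test for a fall, where 33.3%, 18.2%, 16.5% and 8.5% of all genes rose. FBP1, the fructose 1,6-bisphosphatase with the highest mean, rose most in YPS128 (3.03, SE 0.23; 1.41, SE 0.22, in BY4743), with a response above the mean of the strains (0.84, SE 0.20, adjusted p = 0.00625 from edgeR). Of these 7 genes, 3, 5, 5 and 6 rose at 3 h in the same order of strains. The shares of all genes were 23.8%, 30.6%, 32.4% and 34.1%, and the medians of the list were 0.80, 1.42, 1.56 and 2.41. The only falls of the list at 3 h were those of ADH2, its lowest gene, in NCYC3290 (-1.02, SE 0.23) and YPS128 (-1.30, SE 0.27).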

How the data were processed

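RNA was analysed from 35 libraries of 4 strains at 3 times. The authors depleted rRNA, prepared stranded libraries, trimmed reads with Trimmomatic 0.3, mapped them to S288c R64-1-1 with bwa-mem 0.7.12-r1039 and assigned them to genes with HT-Seq 0.6.0. The deposited table holds the raw counts of the authors, not normalized. How HT-Seq treated strand and reads with several matches is not given in the sources used here; no RefSeq gene overlaps a member, but IDs of the table that RefSeq lacks were not checked for overlap. The labels give 0.7 M NaCl for the unstressed libraries too, and the growth protocol, which has them collected before salt, was followed. Coordinates, promoters and names come from RefSeq R64, which matched 6025 of 6717 IDs.

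Counts were analysed with R 4.3.3, edgeR 4.0.16, limma 3.58.1 and DESeq2 1.42.0, and sequences with Biopython 1.88. Genes were filtered by filterByExpr, libraries scaled by TMM, and quasi-likelihood models (robust option) fitted with group and replicate number as a block. The NaCl fit used 34 libraries and 5997 genes, with replicates paired as in the study's model; the unstressed fit used 12 libraries and 5644 genes. The biological coefficient of variation was 15.8% and 8.5%, and replicates of a group varied more than counting error (chi-square over its degrees of freedom, 4.29 to 63.1, over 34 pairs). TMM factors ran from 0.632 to 1.55. Adjustment was within each contrast over all genes tested. SE is the log2 fold change over the square root of F. Group means of log2 CPM used a prior count of 2.

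The pairing comes from the study's methods, which state that the strains of a replicate were cultured side by side. Deviations of same-numbered libraries correlated above 0.1 in 18 of 18 pairs unstressed (0.22 to 0.558), 5 of 15 at 30 min (-0.25 to 0.275) and 17 of 18 at 3 h (0.0795 to 0.639). The members, motifs and lists were chosen with earlier results of these data known, so their direction is not independent evidence. Genes outside the members were named by rule: the 2 most correlated with each member, and the highest and lowest mean change of each list. Alternatives were DESeq2 size factors, upper-quartile and library-total scaling, the Wald test of DESeq2, the likelihood ratio test of edgeR, no filter, no block, a block for each culture, all 35 libraries, a fit to all times for the unstressed levels, and each library left out.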

Additional observations from a re-analysis of the deposited data

Results flagged for a closer look

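The NaCl response of a strain differed from the mean of the 4 strains in 23 of 72 tests over the members (edgeR, adjusted p under 0.05). Of all 5997 genes, 45.9%, 2.08%, 2.18% and 10.3% were called in either direction at 30 min, in the order BY4743, BC187, NCYC3290, YPS128. At 3 h the shares were 22.6%, 5.64%, 3.54% and 24.1%. At 30 min the differences on the log2 scale were, in BY4743, 1.47 for GPD1, 0.75 for GPP1, 1.21 for GPP2, 3.13 for STL1, 1.28 for GUT2, 1.23 for GCY1 and 1.06 for DAK1. In YPS128 they were -1.85 for GPD1, -1.37 for GPP2, -2.62 for STL1, -1.28 for GCY1 and -0.72 for DAK1. GPP2 also differed in BC187 (1.05) and in NCYC3290 (-0.89). At 3 h they were 0.46 for GPP1 and -0.81 for GPP2 in BY4743, 0.67 for GPD2 and 0.75 for GPP1 in BC187, and -0.78 for GPP1, 1.05 for GPP2, 0.95 for STL1, 0.56 for GUT2 and 0.50 for DAK1 in YPS128.

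The YPS128 replicate 3 library at 3 h, which no fit of the main comparisons used, had 7 members above the highest unstressed YPS128 library. They were GPD1 at 2578 normalized CPM, GPP2 at 1799, STL1 at 765, GUT1 at 50, GUT2 at 79.7, GCY1 at 73.3 and DAK1 at 657.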

How the results depend on the processing

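Of 324 tests over the members, 166 were called. Over the 9 or 8 other settings the calls numbered between 48 and 54 for the NaCl response (51 in the reported fit), 22 and 27 for the change from 30 min to 3 h (24), 19 and 29 for the strain difference (23), and 19 and 24 for the level at 3 h (20). With each library left out they ran from 50 to 57, from 23 to 25, from 19 to 27 and from 13 to 23. Of the calls, 47 of 51, 19 of 24, 11 of 23 and 11 of 20 held in every one of these fits, and of the unstressed calls 6 of 19 by strain and 9 of 29 between pairs. Unstressed levels depended on the replicate block: with no replicate block, 8 of 19 calls by strain and 10 of 29 between pairs were made, and with a fit to all time points 8 and 16; with each library left out the counts ran from 17 to 20 and from 24 to 30. In the NaCl fits with no replicate block the calls numbered 48, 22, 19 and 19. The reported NaCl fit had no term for the culture that gave both unstressed and stressed libraries. With a block for each culture, 19 calls were made for the strain difference and 50 for the NaCl response. Calls lost were GPP2 in NCYC3290 and GUT2 in BC187 (response) at 30 min, and GPP1 in BY4743 and STL1 and GUT2 in YPS128 at 3 h.

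Library totals in place of TMM turned GPD2 at 3 h in NCYC3290 (0.00) and YPS128 (0.24), and its change from 30 min to 3 h in YPS128 (0.21) and NCYC3290 (0.45); totals raise the median of all genes in these groups. The sign also changed in 60 of the 158 uncalled tests under some setting. YPS128 at 30 min rests on 2 libraries.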
